A study of Mus musculus with 12 samples.

Results

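The genes described here are the Wnt ligands, their receptors and co-receptors, the secreted and membrane proteins that raise or lower Wnt signalling, and a pair of target genes. They were taken by gene name from the deposited expression tables: the Wnt, Fzd, Dkk, Sfrp and Rspo families, with Lrp5, Lrp6, Lgr4, Lgr5, Lgr6, Axin2, Lef1, Wif1 and Notum added. This gave 50 of the 55487 genes in each table. Of the 50, 43 had a mean of at least 0.3 TPM (transcript abundance scaled for length and library total) in at least 1 group, and the other 7 (3 ligands, 1 agonist and 3 antagonists) stayed under that level in every group. RNA of whole skin wounds from male C57BL/6JNarl mice, 6 weeks old, was sequenced in 12 libraries. Each mouse had 2 punch wounds of 6 mm through the full skin of the back, covered by a dressing. Sham wounds received 200 µl of Pluronic F127 gel (25% in saline) every day, and CAP-treated wounds received the same gel with 10 µM capsaicin (CAP), the pungent compound of chili peppers. Wounds were collected with the tissue around them at day 3 and day 6, with 3 libraries in each of the 4 groups. Every library thus came from wounded, gel-treated skin and tissue around it, and the share of that tissue is not given. Every mean below is given with its SD over 3 libraries.

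Wnt ligands are secreted lipid-modified proteins that bind a Frizzled receptor (Fzd) together with Lrp5 or Lrp6. In the canonical branch this stabilises beta-catenin, which then acts with TCF and LEF factors on target genes such as Axin2, itself part of the complex that degrades beta-catenin. R-spondins (Rspo) bind Lgr4, Lgr5 and Lgr6 and keep Frizzled receptors at the cell surface, whereas Dkk2 binds the co-receptors and Sfrp proteins and Wif1 bind the ligands. Other ligands, Wnt5a and Wnt11 among them, are known for branches that do not need beta-catenin. In skin the pathway is known for hair follicle formation and for the upkeep of the epidermis, and Lgr6 marks a stem cell population of the upper hair follicle.

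TPM does not keep the depth of a library, so no counting error can be given and precision rests on the 3 libraries of a group. Libraries held 18533 to 19325 genes at 0.3 TPM or more. CAP day 6 replicate 2 stood apart, with 14.1% of its TPM in its 10 most abundant genes against 8.27% to 11.3% in the others and the lowest median-ratio scaling factor (0.907 against 0.97 to 1.051). Its summed level of 12 keratinocyte markers (keratins, Trp63, Col17a1, Dsg3, Lor and Ivl) was 105807 TPM, and the other libraries had 33441 to 80016 TPM. Sham day 6 replicate 1 stood apart in 17 hair follicle markers, with 115.6 TPM against 17.17 to 40.71 TPM in the other 11 libraries. The labels do not tie libraries to mice, and if some came from the same mouse, the p values are too small. In bulk tissue, fewer cells of a type and less RNA per cell cannot be told apart.

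The levels of the members spanned several orders of magnitude on the TPM scale, which is per transcript length and can be compared between genes. Among the ligands, Wnt4 (22.36 to 60.24 TPM over the 12 libraries), Wnt7b (21.18 to 76.17), Wnt10a (18.08 to 38.75), Wnt3 (14.98 to 41.94) and Wnt16 (14 to 32.67) were the most abundant. In each of the 4 groups, the ranges of Wnt4, Wnt7b, Wnt10a and Wnt3 overlapped from each to the next, so the order of neighbours is not resolved. At day 6 in CAP-treated wounds Wnt7b stood first (55.8 ± 17.8 TPM) and its range overlapped that of Wnt4 (49.4 ± 10.7 TPM). There the lowest Wnt7b value (43.54 TPM) lay above the highest of Wnt3 (41.94 TPM) and of Wnt10a (38.75 TPM). A middle tier held Wnt5a (6.487 to 17.1 TPM), Wnt9a (3.528 to 10.69), Wnt2 (3.047 to 12.16), Wnt3a (4.424 to 8.548), Wnt11 (3.442 to 9.619) and Wnt10b (1.737 to 5.46). Wnt6 (0.812 to 2.47 TPM), Wnt5b (0.827 to 2.35), Wnt2b (0.276 to 3.21), Wnt7a (0.0811 to 0.856) and Wnt1 (up to 0.445) were low. Wnt1 was listed at 0 in all 3 sham libraries of day 6.

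Of the receptors, the co-receptor Lrp5 was the most abundant (44.59 to 73.69 TPM), and Fzd10 (29.19 to 53.02), Fzd6 (29.35 to 48.37) and Fzd1 (30.13 to 47.12) came next in an order that differed between groups, above the co-receptor Lrp6 (20.76 to 29.92). Fzd2 (11.86 to 24.4 TPM), Fzd7 (9.709 to 20.55) and Fzd4 (9.876 to 18.88) were intermediate, Fzd5 (3.53 to 4.61) and Fzd8 (2.70 to 3.81) were lower, and Fzd9 (0.349 to 1.71) and Fzd3 (0.237 to 0.581) lowest. Among the R-spondins and their receptors, Lgr4 (9.107 to 12.12 TPM) and Lgr6 (3.643 to 14.84) were well above Rspo3 (0.977 to 2.33), Lgr5 (0.520 to 1.68), Rspo1 (0.275 to 1.59) and Rspo4 (0.0383 to 0.930). The antagonists held the most abundant member of all, Sfrp2 (166.8 to 458.5 TPM), ahead of Sfrp4 (22.1 to 97.38), Dkk3 (13.98 to 26.4), Sfrp1 (12.08 to 25.33), Sfrp5 (2.403 to 8.889), Dkk2 (1.059 to 9.661) and Wif1 (0.123 to 0.677). Dkk3 was counted among the antagonists by its family name, and its action in these wounds was not tested. Of the targets, Axin2 was at 12.71 to 19.43 TPM and Lef1 at 0.0709 to 0.577 TPM.

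**Figure D1:**
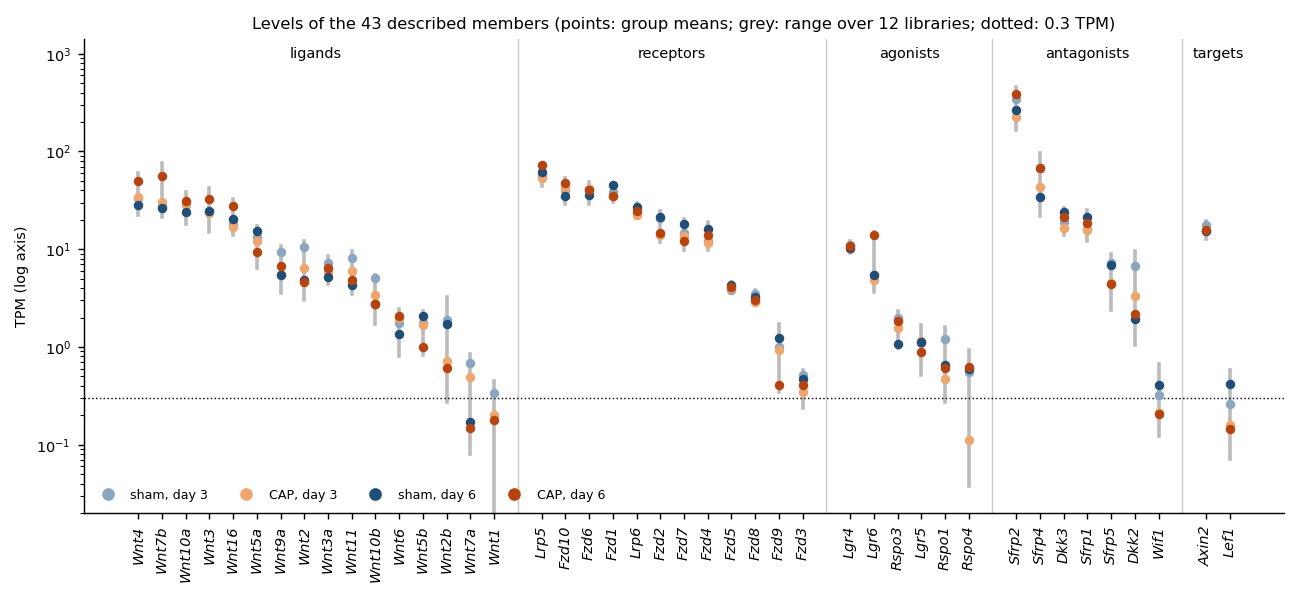
Levels of the 43 members described, by role, in TPM on a log axis: points are the means of the 4 groups, grey bars the range over 12 libraries, and the dotted line is 0.3 TPM. Sfrp2 lies above every other member, and the wide bars of Wnt7a, Rspo4 and Dkk2 contrast with the narrow ones of Fzd5 and Lgr4. The mean of Wnt1 in sham wounds at day 6 is not drawn, as it was listed at 0.

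Summed over their members, the ligands reached 193 ± 19.6 TPM in sham and 178 ± 32.3 TPM in CAP-treated wounds at day 3, and 167 ± 9.16 TPM in sham and 235 ± 42.0 TPM in CAP-treated wounds at day 6. The sum of the R-spondins and Lgr receptors was 21.7 ± 4.04, 18.4 ± 0.748, 19.5 ± 2.35 and 29.0 ± 0.939 TPM in the same order. At day 6 both sums were higher in each CAP-treated library than in each sham library, with the widest gaps in Wnt7b and Wnt4 among the ligands and in Lgr6 among the others. The sum of the receptors was 256 ± 10.3, 242 ± 28.4, 269 ± 16.8 and 269 ± 17.0 TPM, with overlap of CAP and sham libraries at both days. The antagonists, dominated by Sfrp2, summed to 462 ± 101, 311 ± 57.0, 355 ± 122 and 500 ± 18.1 TPM, also without overlap at day 6, where CAP-treated libraries had 482.6 to 518.8 TPM and sham libraries 235.4 to 479.0 TPM.

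Pairs of ligand genes lie next to each other in the genome, and their levels differed by very different amounts. On GRCm38, Wnt10a (chromosome 1, 74791516 to 74804179) begins 6.19 kb after Wnt6 ends, and their means over 12 libraries were 28.2 and 1.78 TPM. Wnt3 (chromosome 11, 103774150 to 103817957) lies 24.3 kb from Wnt9b, with 26.2 against 0.0912 TPM. Wnt3a and Wnt9a, 16.2 kb apart on the same chromosome and read in opposite directions, were at similar levels of 6.19 and 6.78 TPM. Wnt10b and Wnt1, 11.7 kb apart on chromosome 15, had 3.52 and 0.179 TPM.

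Sequences just upstream of the annotated start are shown for 3 members: Lgr6, which has the clearest difference below, and Wnt11 and Wnt5b, the only members whose windows held CTTTGAT or its reverse complement ATCAAAG, the letters of the TCF/LEF core. They are 250 bases from RefSeq on GRCm38.p6, on the strand of the gene, with a match in capitals, at chr1:135105277-135105526 (minus strand) for Lgr6, chr7:98834862-98835111 (plus strand) for Wnt11 and chr6:119449387-119449636 (minus strand) for Wnt5b.
Lgr6: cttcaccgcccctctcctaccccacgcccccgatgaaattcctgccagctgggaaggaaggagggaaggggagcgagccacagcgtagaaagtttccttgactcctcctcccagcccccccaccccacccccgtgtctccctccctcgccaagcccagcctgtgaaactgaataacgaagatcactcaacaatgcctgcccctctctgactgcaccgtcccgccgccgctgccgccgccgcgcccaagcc
Wnt11: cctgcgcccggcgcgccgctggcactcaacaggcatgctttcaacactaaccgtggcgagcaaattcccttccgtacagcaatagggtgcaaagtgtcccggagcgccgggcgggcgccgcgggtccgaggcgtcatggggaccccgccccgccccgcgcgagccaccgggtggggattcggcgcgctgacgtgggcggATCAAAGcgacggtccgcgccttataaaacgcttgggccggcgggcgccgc
Wnt5b: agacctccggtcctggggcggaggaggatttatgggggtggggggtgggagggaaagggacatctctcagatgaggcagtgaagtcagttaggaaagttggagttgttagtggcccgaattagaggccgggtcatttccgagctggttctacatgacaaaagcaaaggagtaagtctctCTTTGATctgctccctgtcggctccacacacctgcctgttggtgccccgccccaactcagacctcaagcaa
The Wnt5b window precedes 1 of its 3 annotated starts and lies inside the gene outside its exons. The windows shown for Lgr6 and Wnt11 end just before the first base of their gene. Wnt11 has another window, inside the gene, without the letters. RefSeq windows were at hand for 32 of the 50 members, 38 windows in all, and 2 of them (5.26%) held the letters, as did 3.21% of 32851 mouse promoter windows of that length. A match is no evidence that a factor binds there.

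At day 3, 2 members passed the threshold between CAP-treated and sham wounds, and both were lower after CAP. Past the threshold means here an unadjusted p below 0.05 together with a 2-fold or larger difference, the limits of the study, on the scale log2(TPM + 0.1). Of the 39 members with at least 0.3 TPM in both groups, 0 were past it in the higher direction and 2 in the lower direction, Wnt2b and Rspo1. Over all 18330 genes tested, 0.426% were past it higher and 1.16% lower, 1.58% in either direction. No member had an adjusted p under 0.05 in limma, which 0.0164% of all genes had in the higher direction and 0 in the lower, and 7 had an unadjusted p under 0.05, as had 6.6% of all genes. In all, 34 of 39 members were below 0 (median log2 difference −0.13), and 29 of 39 with median-ratio scaling, while 62.2% of all genes were below 0 (median −0.05).

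Rspo1, an R-spondin that potentiates Wnt signalling (ENSMUSG00000028871, chromosome 4, 124986430 to 125009099), had 0.956, 1.59 and 1.08 TPM in the sham libraries and 0.779, 0.275 and 0.367 TPM in the CAP-treated libraries. All 3 CAP-treated libraries lay below all 3 sham libraries, though CAP replicate 1 lay close to the lowest sham value. The log2 difference was −1.26 (SE 0.41, unadjusted p = 0.0196, adjusted p = 0.692 in limma). Wnt2b, a canonical ligand (ENSMUSG00000027840, chromosome 3, 104945272 to 104961921), had 3.21, 1.22 and 1.25 TPM in sham and 1.03, 0.417 and 0.712 TPM in CAP-treated wounds. The groups did not overlap, and sham replicate 1 was far above the rest. Its log2 difference was −1.21 (SE 0.47, unadjusted p = 0.0380, adjusted p = 0.732 in limma). Each fell short of the threshold in 3 of the 6 fits without 1 library: Rspo1 gave −0.999 without CAP replicate 2, −1.16 without CAP replicate 3 and −1.06 without sham replicate 2, and Wnt2b gave −0.92, −1.24 and −0.78 without CAP replicate 2, CAP replicate 3 and sham replicate 1. With a pseudocount of 1 TPM they fell short as well, at −0.59 and −0.70.

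In the 5 other members with an unadjusted p under 0.05 at day 3 the difference was under 2-fold and negative. They were the ligands Wnt9a (−0.71, SE 0.17) and Wnt10b (−0.59, SE 0.21), the receptor Fzd2 (−0.56, SE 0.11) and the antagonists Sfrp4 (−0.64, SE 0.24) and Sfrp5 (−0.67, SE 0.26), with adjusted p values of 0.500 to 0.732 in limma. Fzd2 had 23.3, 18.5 and 20.3 TPM in sham and 14.3, 13.5 and 14.1 TPM in CAP-treated wounds, the narrowest group among these. Wnt9a had 10.7, 9.16 and 7.97 TPM in sham and 5.82, 4.79 and 6.32 TPM in CAP-treated wounds. Counting Wnt2b, Rspo1, Fzd3 and Lgr4 as well as Wnt9a, Wnt10b and Fzd2, 7 members did not overlap in the lower direction and 0 in the higher direction, where 8.75% and 2.86% of all genes did so. Rspo4, an R-spondin, was not tested, as its CAP mean of 0.113 TPM was under the limit. It had 0.235, 0.930 and 0.511 TPM in sham and 0.221, 0.0383 and 0.0796 TPM in CAP-treated wounds. The antagonist Dkk2 differed by −1.20, past 2-fold, but its unadjusted p in limma was not under 0.05. It had 4.33, 6.29 and 9.66 TPM in sham and 3.57, 1.06 and 5.28 TPM in CAP-treated wounds, with overlap. Dkk2 passed the threshold in the joint fit of 12 libraries, with a replicate block and without CAP replicate 3.

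**Figure D2:**
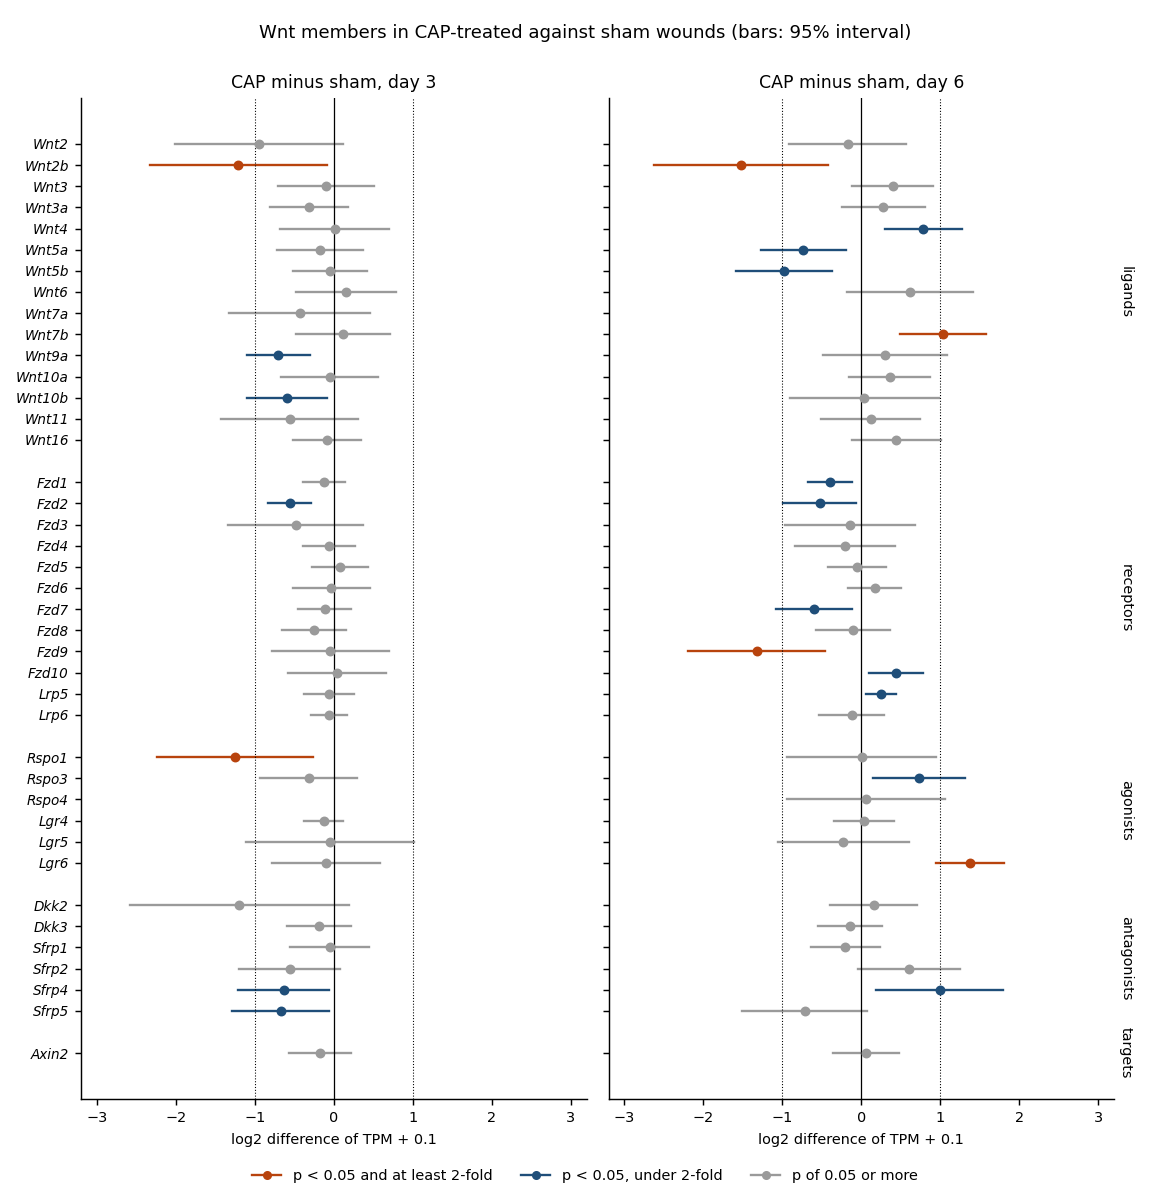
Log2 difference (TPM + 0.1) of CAP-treated minus sham wounds for the members tested at day 3 (left) and day 6 (right), with 95% intervals from limma and dotted lines at 2-fold; red marks an unadjusted p under 0.05 with at least 2-fold, blue such a p under 2-fold, and grey the rest. Rspo1 and Wnt2b in red and Dkk2 in grey lie past the left line at day 3. At day 6 Lgr6 and Wnt7b lie past the right line and Wnt2b and Fzd9 past the left one.

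At day 6 the largest positive difference between treatments was in Lgr6, the R-spondin receptor (ENSMUSG00000042793, chromosome 1, 134983301 to 135105276). It had 6.91, 4.74 and 4.75 TPM in the sham libraries and 13.9, 14.8 and 13.6 TPM in the CAP-treated libraries. The 3 CAP-treated values lay close together and above every library of the other groups, the highest of which was sham day 3 replicate 2 with 7.89 TPM. The means were 5.47 ± 1.25 and 14.1 ± 0.645 TPM, a log2 difference of 1.37 (SE 0.18, 95% interval 0.95 to 1.80, 2.59-fold, unadjusted p = 1.265e-04, adjusted p = 0.205 in limma). Omitting any 1 of the 6 libraries left it past the threshold (1.29 to 1.55), and it was past it at 1.24 with a pseudocount of 1 TPM and at 1.48 with median-ratio scaling. The exact 2-sided permutation test gave p = 0.1, the smallest it can give with 3 libraries against 3.

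Wnt7b, a canonical ligand made in the epidermis (ENSMUSG00000022382, chromosome 15, 85535437 to 85582473), was also past the threshold in the higher direction. It had 26.1, 30.9 and 22.6 TPM in sham and 43.5, 76.2 and 47.7 TPM in CAP-treated wounds, with the highest value in CAP replicate 2, the library that stood apart. The log2 difference was 1.04 (SE 0.23, unadjusted p = 0.00273, adjusted p = 0.205 in limma). Without CAP replicate 2 it was 0.79 and without sham replicate 3 it was 0.93, both short of 2-fold.

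The members past the threshold in the lower direction at day 6 were Wnt2b and Fzd9. Wnt2b had 1.59, 2.003 and 1.52 TPM in sham and 0.428, 0.276 and 1.12 TPM in CAP-treated wounds, without overlap and with CAP replicate 3 nearest to the sham values. Its log2 difference was −1.53 (SE 0.47, unadjusted p = 0.0136, adjusted p = 0.213 in limma). Fzd9, a Frizzled receptor (ENSMUSG00000049551, chromosome 5, 135248938 to 135251230), had 1.71, 1.17 and 0.782 TPM in sham and 0.470, 0.349 and 0.404 TPM in CAP-treated wounds. The CAP-treated values were the lowest 3 of all 12 libraries. The sham values were widely spread, with the highest in replicate 1, the library with the highest sums of hair follicle and fibroblast markers. Its log2 difference was −1.33 (SE 0.37, unadjusted p = 0.00875, adjusted p = 0.209 in limma). Both held the threshold with each library left out, Wnt2b at −2.01 to −1.16 and Fzd9 at −1.59 to −1.07, and −1.07 was the value without sham replicate 1. With a pseudocount of 1 TPM both fell short (−0.78 and −0.64), as they lie near the filter.

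Counted over the class, 4 of 39 members (10.3%) were past the threshold at day 6, 2 in each direction, against 3.8% of all genes (1.46% higher and 2.34% lower). Median-ratio scaling moved the median log2 difference of all genes from −0.12 to −0.02 and the numbers of all genes past the threshold from 268 higher and 429 lower to 384 and 310, while the 4 members stayed past it and Sfrp4 joined them. No adjusted p of a member or of any gene was under 0.05 in limma, where 14 members and 19.2% of all genes had an unadjusted p under 0.05. In the limma fit without CAP replicate 3, 519 genes higher and 911 lower had an adjusted p under 0.05, with 0.0316 for Lgr6, 0.0348 for Wnt2b, 0.0379 for Fzd7 and 0.0440 for Wnt4. Of the 2 CAP-treated libraries left in that fit, 1 is replicate 2, the library that stood apart. Without any other single library, CAP replicate 2 included, 0 genes had such an adjusted p. With all libraries kept, 22 of 39 members were above 0 and 17 below (median 0.04), while 65.7% of all genes were below 0. Of the ligands 10 of 14 were above 0, with scaling too (median 0.29, and 0.39 with scaling), and of the receptors 9 of 12 were below 0 (median −0.13), 8 with scaling.

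Beside Lgr6 and Wnt7b, 5 members with a positive difference at day 6 had an unadjusted p under 0.05 and values without overlap, with adjusted p values of 0.208 to 0.226 in limma: the ligand Wnt4 (0.79, SE 0.21), the receptors Fzd10 (0.44, SE 0.15) and Lrp5 (0.25, SE 0.08), the antagonist Sfrp4 (0.99, SE 0.34) and the R-spondin Rspo3 (0.73, SE 0.25). Rspo3 (ENSMUSG00000019880, chromosome 10, 29452416 to 29535867) had 0.977, 1.27 and 0.996 TPM in sham and 1.66, 2.14 and 1.77 TPM in CAP-treated wounds. Lrp5, the most abundant receptor gene (ENSMUSG00000024913, chromosome 19, 3584828 to 3686564), had 61.4, 60.9 and 60.9 TPM in sham and 73.7, 73.3 and 71.2 TPM in CAP-treated wounds, a small difference with narrow groups. Wnt4, the ligand with the highest mean in 3 of the 4 groups (ENSMUSG00000036856, chromosome 4, 137277489 to 137299726), had 22.9, 34.7 and 28.1 TPM against 49.2, 60.2 and 38.9 TPM. The 95% interval of its log2 difference was 0.30 to 1.28, and at day 3, with 24.2, 41.5 and 35.1 TPM in sham and 42.8, 37.3 and 22.4 TPM in CAP-treated wounds, it was −0.68 to 0.69.

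In the lower direction at day 6, the noncanonical ligand Wnt5a (−0.73, SE 0.23), its relative Wnt5b (−0.98, SE 0.26) and the receptors Fzd1 (−0.40, SE 0.12), Fzd2 (−0.53, SE 0.19) and Fzd7 (−0.60, SE 0.20) had an unadjusted p under 0.05 and were short of 2-fold, with adjusted p values of 0.208 to 0.234 in limma. Wnt5b had 1.72, 2.35 and 2.17 TPM in sham and 1.02, 0.827 and 1.18 TPM in CAP-treated wounds. Wnt5a had 13.3, 15.4 and 17.1 TPM against 11.5, 6.49 and 10.1 TPM. Neither group pair overlapped, and the CAP-treated values of Wnt5b were the lowest of the 12 libraries. Together 7 members lay apart without overlap in each direction, the lower ones being Wnt2b, Wnt5a, Wnt5b, Fzd1, Fzd7, Fzd9 and the antagonist Sfrp5 but not Fzd2, where 8.01% of all genes did so higher and 18% lower.

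**Figure D3:**
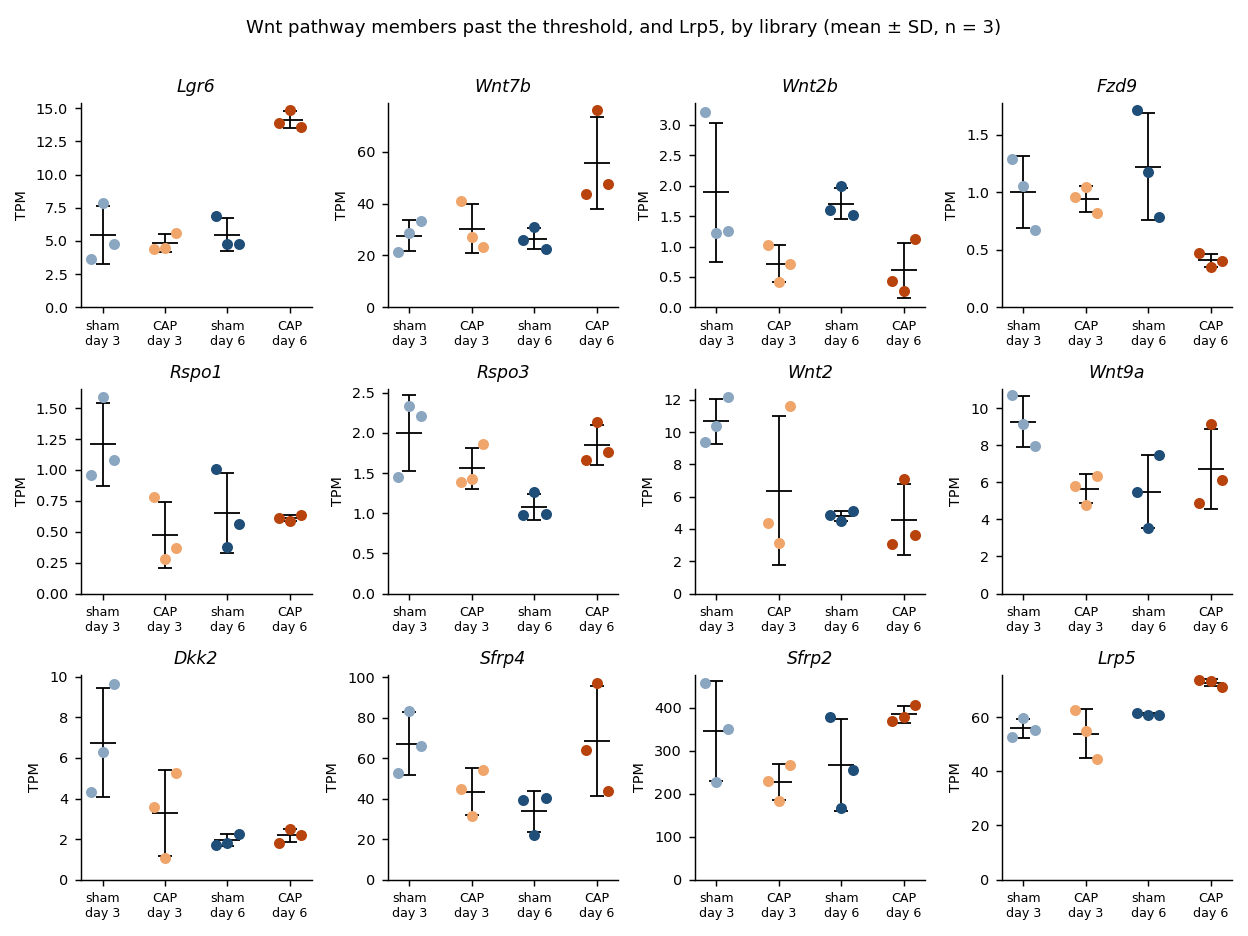
TPM by library for 12 members, each panel on its own linear axis from 0, with points for libraries (replicates 1 to 3 from left to right) and black bars for the mean ± SD of the 4 groups. Lgr6 is at 13.6 to 14.8 TPM in the CAP-treated wounds of day 6 and at 7.89 TPM or less in all others, Fzd9 is lowest there, and Dkk2 and Wnt2 are highest in the sham wounds of day 3.

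In sham wounds, a ligand and 2 antagonists were past the threshold at day 6 against day 3, all of them lower. Of 40 members tested, 0 were past the threshold higher and 3 lower, 7.5% in all, where 2.13% of all genes were higher and 1.61% lower, 3.75% in all. Collection day cannot be told apart from anything else that differed between the 2 collections. Adjusted p values under 0.05 in limma were found for 3 members, all lower, where 1.14% of all genes had one in each direction. Unadjusted p values under 0.05 were found for 11 members and 16% of all genes, and 23 of 40 members and 49.3% of all genes were below 0. The joint fit of all 12 libraries gave 0 such genes of either direction over the whole table, with 2199 at an unadjusted p under 0.05, and the fit without sham day 3 replicate 3 gave 1, with 2184 at an unadjusted p under 0.05.

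Wnt2, a canonical ligand (ENSMUSG00000010797, chromosome 6, 17988940 to 18030585), had 9.40, 10.4 and 12.2 TPM at day 3 and 4.86, 4.51 and 5.12 TPM at day 6. The gap between the groups was wider than either group, and the log2 difference was −1.12 (SE 0.14, adjusted p = 0.0165 in limma). Dkk2, a secreted antagonist that binds Lrp5 and Lrp6 (ENSMUSG00000028031, chromosome 3, 132085292 to 132180304), had 4.33, 6.29 and 9.66 TPM at day 3 and 1.72, 1.83 and 2.27 TPM at day 6. Among the 40 members tested it showed the largest difference, −1.68 (SE 0.30, adjusted p = 0.0398 in limma), with a wide spread at day 3 and a narrow one at day 6. Both held the threshold with each library left out, Wnt2 at −1.20 to −1.02 and Dkk2 at −1.96 to −1.39, but their adjusted p values in limma then ran from 0.0205 to 0.0883 for Wnt2, over 0.05 in 3 of 6 fits, and from 0.0212 to 0.120 for Dkk2, over 0.05 in 5 of 6. With a pseudocount of 1 TPM Wnt2 was just short of 2-fold (−0.99). In CAP-treated wounds Wnt2 had 4.37, 3.12 and 11.6 TPM at day 3 and 3.05, 7.08 and 3.61 TPM at day 6, and Dkk2 had 3.57, 1.06 and 5.28 TPM at day 3 and 1.82, 2.49 and 2.22 TPM at day 6. In both genes the days overlapped there, with the highest values in replicate 3 of day 3.

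Sfrp4, a secreted Frizzled-related antagonist (ENSMUSG00000021319, chromosome 13, 19623104 to 19632994), had 52.6, 83.4 and 65.8 TPM at day 3 and 39.2, 22.1 and 40.2 TPM at day 6 in sham wounds. Its log2 difference of −1.01 (SE 0.26, adjusted p = 0.111 in limma) was −0.85 without sham day 3 replicate 2 and −0.73 without sham day 6 replicate 2, both under 2-fold. Wnt11, a noncanonical ligand (ENSMUSG00000015957, chromosome 7, 98835112 to 98855195), had 8.53, 9.23 and 6.63 TPM at day 3 and 4.24, 3.95 and 4.69 TPM at day 6, a difference of −0.90 (SE 0.17, adjusted p = 0.0450 in limma) that is under 2-fold. Its adjusted p was over 0.05 in all 6 fits without 1 library (0.0857 to 0.144) and with no filter (0.0869). In CAP-treated wounds Wnt11 spread from 3.45 to 9.62 TPM at day 3 and from 3.44 to 6.84 TPM at day 6. Wnt7a was not tested, as its mean at day 6 was 0.171 TPM. It had 0.659, 0.856 and 0.529 TPM at day 3 and 0.222, 0.134 and 0.156 TPM at day 6, and with a filter on the mean over the 6 libraries its difference was −1.52 (SE 0.41, adjusted p = 0.116 in limma).

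In the other direction, Fzd1 (0.25, SE 0.09), Fzd7 (0.30, SE 0.12) and Sfrp1 (0.39, SE 0.14) had an unadjusted p under 0.05 in sham wounds with differences well under 2-fold, and the ligands Wnt3a (−0.48), Wnt9a (−0.80) and Wnt10b (−0.97) and the agonist Rspo3 (−0.81) had one in the lower direction. Of the 14 ligands tested 10 were below 0 and of the 12 receptors 8 were above 0, and the counts were the same with median-ratio scaling. In all, 8 members did not overlap in the lower direction and 4 in the higher, where 10.6% and 10.8% of all genes did so.

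In CAP-treated wounds the comparison of days was led by Lgr6, at 4.41, 4.48 and 5.62 TPM at day 3 and 13.9, 14.8 and 13.6 TPM at day 6. Its log2 difference was 1.53 (SE 0.15, 95% interval 1.18 to 1.88, unadjusted p = 2.151e-05, adjusted p = 0.0783 in limma), and 1.47 to 1.64 with each library left out. In sham wounds the same interval was −0.65 to 0.76. Fzd9 was the member past the threshold in the lower direction, with 0.958, 1.05 and 0.820 TPM at day 3 against 0.470, 0.349 and 0.404 TPM at day 6 (−1.04, SE 0.30, adjusted p = 0.329 in limma). It was −0.97 without CAP day 3 replicate 2 and −0.95 without CAP day 6 replicate 2. These 2 of 38 members (5.26%) stand beside 2.79% of all genes, 1.27% higher and 1.52% lower. Adjusted p values under 0.05 in limma were found for 0 members, 0 genes higher and 0.00549% of all genes lower, while 7 members and 11.6% of all genes had an unadjusted p under 0.05. These comparisons share the CAP-treated libraries of day 6 with the comparison of treatments at that day, so the values of Lgr6 and Fzd9 in the 2 are not independent.

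Further members with an unadjusted p under 0.05 between the days in CAP-treated wounds were Sfrp2 (0.78, SE 0.15), Wnt16 (0.69, SE 0.19), Wnt7b (0.87, SE 0.28), Lrp5 (0.44, SE 0.14) and Wnt5b (−0.70, SE 0.24), with adjusted p values of 0.295 to 0.369 in limma. Sfrp2, the most abundant member (ENSMUSG00000027996, chromosome 3, 83766321 to 83774316), had 230, 183 and 267 TPM at day 3 and 369, 378 and 407 TPM at day 6 in CAP-treated wounds. In sham wounds it had 459, 226 and 350 TPM at day 3 and 379, 167 and 256 TPM at day 6, a far wider spread. Of 38 members 25 were higher at day 6 in the CAP-treated wounds, and 27 with median-ratio scaling, while 57% of all genes were lower. The days did not overlap in 5 members that were higher and 2 that were lower, where 8.05% and 9.63% of all genes did so. Rspo4 and Wnt7a were again outside the filter. With a filter on the mean over the 6 libraries Rspo4 differed by 1.80 (SE 0.52, adjusted p = 0.315 in limma) and Wnt7a by −1.22 (SE 0.46, adjusted p = 0.376 in limma).

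**Figure D4:**
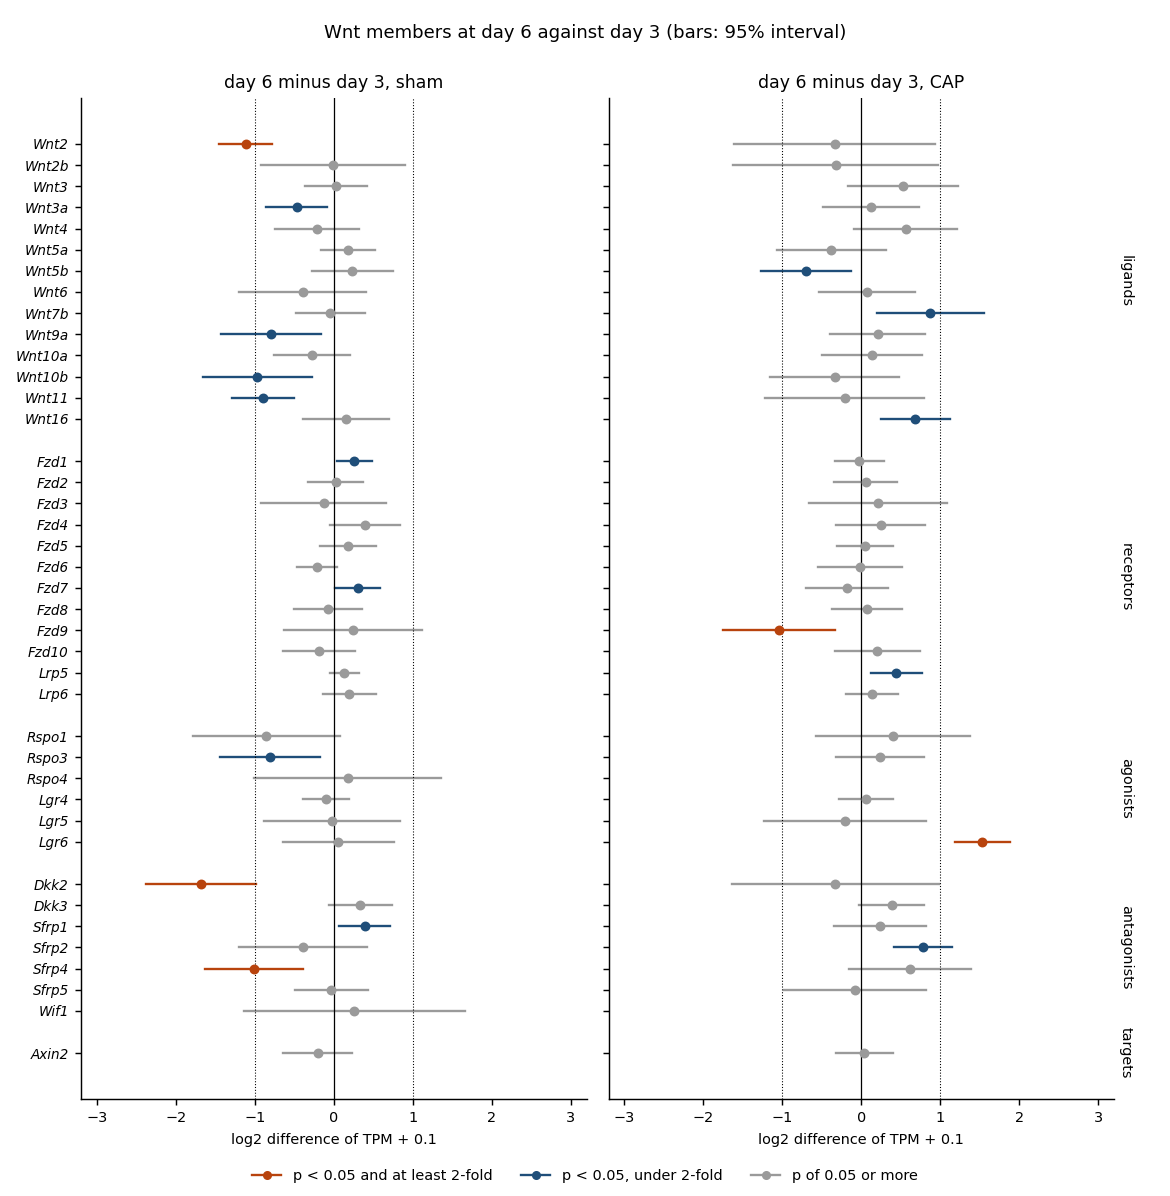
Log2 difference (TPM + 0.1) of day 6 minus day 3 for the members tested in sham (left) and CAP-treated wounds (right), with 95% intervals from limma, dotted lines at 2-fold and the same colours as in the plot of treatments. Wnt2, Dkk2 and Sfrp4 lie past the left line in sham wounds, and Lgr6 past the right line and Fzd9 past the left one in CAP-treated wounds.

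Whether the CAP effect differed between the days was tested by the interaction term in a fit of all 12 libraries. Of the 38 members with at least 0.3 TPM in every group, 6 were past the threshold in the higher direction, that is with a more positive CAP effect at day 6, and 1 in the lower direction. These 7 members are 18.4%, where 4.09% of all genes were past it (1.84% higher and 2.25% lower). They were the agonists Lgr6 (1.48, SE 0.36), Rspo3 (1.05, SE 0.33) and Rspo1 (1.26, SE 0.56), the antagonists Sfrp4 (1.63, SE 0.46) and Sfrp2 (1.17, SE 0.42), the ligand Wnt9a (1.008, SE 0.40) and the receptor Fzd9 (−1.28, SE 0.45). No adjusted p was under 0.05 in limma: the 7 had 0.424 to 0.435, and 9 members and 11.5% of all genes had an unadjusted p under 0.05. The 2 members besides those 7 were Wnt5b (−0.93, SE 0.28) and Wnt7b (0.92, SE 0.37).

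The CAP effects behind the 7 interactions took different forms. Lgr6 and Fzd9 had CAP effects near 0 at day 3 (−0.10 and −0.05) and past 2-fold at day 6. Sfrp4 went from −0.64 at day 3 to 0.99 at day 6, with 45.0, 31.3 and 54.2 TPM and then 64.3, 97.4 and 43.9 TPM in CAP-treated wounds. The CAP-treated libraries overlapped the sham libraries at day 3 and lay above them at day 6, with the highest value in replicate 2. Sfrp2 went from −0.56 to 0.60, and its CAP-treated and sham libraries overlapped at both days. Wnt9a went from −0.71 to 0.30, with 5.47, 3.53 and 7.496 TPM in sham and 4.90, 9.13 and 6.12 TPM in CAP-treated wounds at day 6, where the groups overlapped. Rspo3 went from −0.32 to 0.73, with 1.45, 2.33 and 2.21 TPM in sham and 1.39, 1.43 and 1.86 TPM in CAP-treated wounds at day 3. Its sham libraries of day 6 lay below those of day 3, while the CAP-treated libraries of the 2 days overlapped. Rspo1 went from −1.26 to 0.00, with 1.008, 0.380 and 0.565 TPM in sham and 0.610, 0.583 and 0.636 TPM in CAP-treated wounds at day 6. Lgr6, Sfrp4 and Fzd9 were past the threshold in each of the 12 fits without 1 library, Sfrp2 in 10, Wnt9a in 8, Rspo3 in 6 and Rspo1 in 3. Sfrp2 was 0.93 without sham day 3 replicate 1 and 0.87 without sham day 6 replicate 2.

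No difference of Axin2, the readout gene tested, had an unadjusted p under 0.05 in any of the 5 comparisons. Axin2, the target and feedback inhibitor of the canonical branch (ENSMUSG00000000142, chromosome 11, 108920349 to 108950783), had 14.6, 19.0 and 19.1 TPM in sham and 16.4, 17.4 and 12.7 TPM in CAP-treated wounds at day 3, and 19.4, 13.2 and 13.4 against 16.1, 16.8 and 14.5 TPM at day 6. All 4 groups overlapped. The 95% interval of its log2 difference was −0.58 to 0.22 at day 3 and −0.35 to 0.48 at day 6, so differences up to those bounds would be compatible with the interval. Lef1, a factor that acts with beta-catenin, was under the filter in all groups but sham day 6, where it had 0.577, 0.203 and 0.472 TPM against 0.164, 0.198 and 0.0709 TPM in CAP-treated wounds. Its highest value was in sham day 6 replicate 1, the library with high hair follicle markers, as was that of Wif1 (0.677 TPM). That library also had the highest sum of fibroblast markers (26957 TPM) and held the highest value of 9 of the members described. Lgr4, an R-spondin receptor that led the agonist class in every group but CAP day 6, where Lgr6 was above it at 14.1 against 10.7 TPM (ENSMUSG00000050199, chromosome 2, 109917647 to 110014257), stayed within 9.11 and 12.1 TPM, with intervals of −0.38 to 0.12 at day 3 and −0.35 to 0.42 at day 6.

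Of 73 other genes of the pathway (secretion, transduction, planar polarity and regulation), 67 were tested at day 3 and 66 at day 6. At day 3, 0 were past the threshold in limma, against 1.58% of all genes, and 7 had an unadjusted p under 0.05, as had 6.6% of all genes. Below 0 were 52 of 67 (46 with median-ratio scaling) and 62.2% of all genes. At day 6, 1 was past it higher and 2 lower (4.55%), near the 3.8% of all genes. Ctnnbip1, an inhibitor of beta-catenin that blocks its binding to TCF factors, had 46.9 ± 3.95 TPM in sham and 107.9 ± 34.8 TPM in CAP-treated wounds (1.15, SE 0.22, adjusted p = 0.205 in limma), and 0.91 without CAP replicate 2. The planar polarity cadherin Celsr3 (−1.45, SE 0.60) and Daam2 (−1.004, SE 0.37) were lower, with adjusted p values of 0.254 and 0.234 in limma, and fell short without 1 library in 5 and 4 of 6 cases and with median-ratio scaling (−1.36 and −0.91). With that scaling 26 of 66 were below 0, against 38 without it, where 65.7% of all genes were below 0. In sham wounds Dact2, a regulator of Dishevelled, was lower at day 6 (2.48 ± 0.667 against 0.586 ± 0.364 TPM, −2.02, SE 0.44, adjusted p = 0.0690 in limma). It was the 1 gene of 67 past the threshold (1.49%), against 3.75% of all genes. Between the days in CAP-treated wounds Ctnnbip1 was the 1 gene of 66 past it (1.03, and short of it without CAP day 3 replicate 2 or CAP day 6 replicate 2). That is 1.52%, against 2.79% of all genes. In the interaction Ctnnbip1 (1.13), Dact2 (2.81) and Celsr3 (−1.93) were past it, 4.55% against 4.09% of all genes.

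Markers of cell types moved beside the members. The sum of the 12 keratinocyte markers was 33441 to 41271 TPM in sham and 51315 to 105807 TPM in CAP-treated wounds at day 6, without overlap, with 10 of the 12 genes higher after CAP and none of the 12 under 0.3 TPM throughout. At day 3 it was 44606 to 65152 TPM in sham and 36269 to 66796 TPM in CAP-treated wounds. The part of these markers in the differences of Lgr6, Wnt4, Wnt7b, Fzd10 and Rspo3 at day 6 was not tested.

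**Figure D5:**
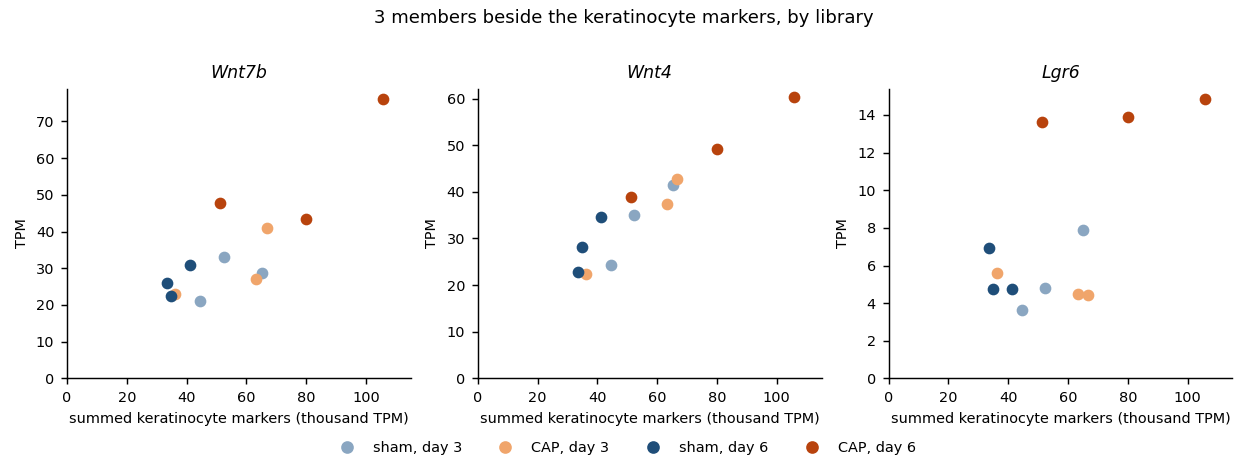
TPM of Wnt7b, Wnt4 and Lgr6 (vertical axes from 0) against the summed keratinocyte markers (horizontal axis, kilo-TPM), 1 point for each of the 12 libraries, coloured by group. The 3 CAP-treated libraries of day 6 are the highest of the 12 for Lgr6 (13.6 to 14.8 TPM), and CAP day 6 replicate 2 is the highest for Wnt7b, for Wnt4 and for the marker sum (105807 TPM).

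The sum of 10 fibroblast markers, collagens and other matrix genes with Pdgfra and Twist2, was 15332 to 23614 TPM in sham and 10701 to 16118 TPM in CAP-treated wounds at day 3, with all 10 lower after CAP, and 20095 to 26957 against 16422 to 22114 TPM at day 6, with 2 of 10 higher. The part of the fibroblast markers in the lower values of Fzd2 at day 3 and of Fzd1, Fzd7, Fzd9, Wnt5b, Lef1 and Wif1 at day 6 was not tested. The 10 endothelial markers summed to 334.9 to 454.3 TPM in sham and 107.8 to 289.1 TPM in CAP-treated wounds at day 6, and none of the 10 was higher after CAP. The hair follicle sum was 31.44 to 115.6 TPM in sham and 17.17 to 26.81 TPM in CAP-treated wounds at that day, with 2 of 17 genes higher, and its part in the lower values of Fzd9, Lef1 and Wif1 was not tested. Other lists with genes higher after CAP at day 6 were macrophage 0 of 10, neutrophil 0 of 10, muscle 0 of 12 and Schwann cell 1 of 10. The rest were melanocyte 3 of 8, T and NK cell 5 of 10, sebaceous 6 of 10 and adipocyte 9 of 10. At day 3 the numbers were 4, 7, 0, 2, 4, 1, 4 and 9 in the same order. Their part in the differences of the members was not tested.

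Between the days in sham wounds these markers differed as well, and their part in the lower values of Wnt2, Dkk2, Sfrp4 and Wnt11 was not tested. The endothelial sum was 134.9 to 168.1 TPM at day 3 and 334.9 to 454.3 TPM at day 6, with 10 of 10 genes higher, and the sum of 10 macrophage markers was 5591 to 7705 and 9027 to 13287 TPM, also with 10 of 10 higher. The keratinocyte sum was lower at day 6 without overlap, with 3 of 12 genes higher, 9 of 10 fibroblast genes were higher, and 0 of 12 muscle genes were higher. In CAP-treated wounds 5 of 12 keratinocyte, 9 of 10 fibroblast, 10 of 10 endothelial, 6 of 10 macrophage and 0 of 12 muscle genes were higher at day 6.

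Some members overlap other annotated genes, and strand was not given for the counting, so reads cannot be divided between them. Wnt7b, Wnt5a, Wnt5b, Wnt11, Rspo1, Sfrp2 and Axin2 each overlap 1 gene on the opposite strand, Wnt2b overlaps Gm43846 on the same strand, and Rspo3 overlaps 1 gene on each strand. No annotated gene overlaps Lgr6, Fzd9, Wnt2, Wnt4, Wnt9a, Dkk2, Sfrp4, Lrp5 or Lgr4.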

How the data were processed

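RNA was measured in 12 libraries of wound tissue. Library preparation used a SureSelect XT HS2 mRNA kit, with paired reads of 150 bases. Per the labels, bcl2fastq, Trimmomatic 0.36 and the mm10 build were used. With StringTie, the authors made TPM values per gene and deposited 1 table per library with 0 other columns of sample values, in which 0.0001 stands for 0. For the aligner, annotation release and strand setting, nothing is given in the sources used here. All 50 members had the coordinates of GENCODE M21 on GRCm38. TPM carries no depth, so precision rests on the 3 libraries of each group.

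Groups follow treatment and day in the labels. The members, lists, tests and alternatives were chosen with earlier results of these data known. A gene was tested if its mean reached 0.3 TPM in every group compared. Tests were made on log2(TPM + 0.1) with limma 3.58.1 (R 4.3.3), letting the variance follow the mean, and adjusted p values are Benjamini-Hochberg values over the whole table. A fold change on this scale understates the change of low genes. The 5 comparisons are CAP against sham at each day, day 6 against day 3 in each treatment, and the interaction. Single members were also compared by an exact 2-sided permutation test over the 20 divisions of 6 libraries. It can give no p under 0.1. The count-based tests of the study were not used, as TPM values are not counts. Alternatives were a pseudocount of 1 TPM, a filter on the mean over the libraries compared, no filter, median-ratio scaling, a joint fit of all libraries, a replicate block and leaving out each library. Members at 0.3 TPM or more in any group are named with their range. Library values are given for those past the threshold or with an adjusted p under 0.05 and for the most abundant of each class, and for some others chosen after their values were seen. P values measure the spread between these libraries, which may be technical. Python 3.11.15, numpy 2.4.6, pandas 2.3.3 and matplotlib 3.10.9 were used.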

Additional observations from a re-analysis of the deposited data

Results flagged for a closer look

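The CAP effect differed between day 6 and day 3 by at least 2-fold with an unadjusted p under 0.05 in 7 of 38 members (18.4%), by the interaction term of limma over all 12 libraries. Of all genes 4.09% did so. None of the 7 had an adjusted p under 0.05. Lgr6, Sfrp4 and Fzd9 alone held the threshold in each fit without 1 library. With a pseudocount of 1 TPM only Lgr6, Sfrp2 and Sfrp4 were past it. Lgr6 differed by 1.48 on the log2 scale (unadjusted p = 0.00168, adjusted p = 0.424), with CAP-treated libraries above sham libraries in 3 of 3 at day 6 and overlap at day 3. Sfrp4 differed by 1.63 (unadjusted p = 0.00480, adjusted p = 0.424) and Sfrp2 by 1.17 (unadjusted p = 0.0187, adjusted p = 0.424), each with a negative CAP effect at day 3 and a positive one at day 6. Rspo3 differed by 1.05 (unadjusted p = 0.00863, adjusted p = 0.424) and Wnt9a by 1.008 (unadjusted p = 0.0283, adjusted p = 0.424), both with a negative estimate at day 3 and a positive one at day 6. CAP-treated and sham libraries overlapped in Sfrp2 at both days, in Sfrp4 and Rspo3 at day 3 and in Wnt9a at day 6. A change of sign is thus not resolved in Sfrp2, Sfrp4, Rspo3 and Wnt9a. Rspo1 differed by 1.26 (unadjusted p = 0.0455, adjusted p = 0.435), with a CAP effect of −1.26 at day 3 and 0.00 at day 6. Fzd9 was the single member in the other direction, at −1.28 (unadjusted p = 0.0165, adjusted p = 0.424). The part of the cell type markers in these differences was not tested.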

How the results depend on the processing

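Leaving out 1 library gave 0 to 2 members past the threshold for CAP against sham at day 3, 3 to 6 at day 6, 2 to 5 for day 6 against day 3 in sham wounds, 1 to 3 in CAP-treated wounds and 4 to 9 for the difference of the CAP effect between the days. A pseudocount of 1 TPM lowered these counts, in the same order, from 2 to 0 (with 1226 genes at an unadjusted p under 0.05 over the whole table), from 4 to 2, from 3 to 1, from 2 to 1 and from 7 to 3. Among the members lost, Wnt2b, Fzd9 and Rspo1 are low, while Sfrp4 and Wnt2 lay near 2-fold. With no filter the count was 5 in place of 3 for the days in sham wounds, with Wnt1 and Wnt7a added, and 4 in place of 2 in CAP-treated wounds, with Rspo4 and Wnt7a added, as with the filter on the mean over the libraries compared (4). All other settings left each count within 1.5 times. The alternatives gave 621 values for the 48 results of single members that had an unadjusted p under 0.05 in limma as reported. Of these values 0 reversed, 46 lost the threshold and 19 gained it. The results were selected by that p, so reversals were unlikely and their absence is no measure of robustness. Over all genes, the numbers past the threshold for CAP against sham at day 6 were 268 higher and 429 lower as reported, 157 and 228 with a pseudocount of 1 TPM, 438 and 649 with no filter, 140 and 171 without CAP replicate 2, and 458 and 1025 without CAP replicate 3. At day 3 they were 78 and 212, against 43 and 111 with a pseudocount of 1 TPM and 227 and 391 with no filter, and 150 and 360 without CAP replicate 1, where 6 genes higher and 42 lower had an adjusted p under 0.05 in limma, and fewer (55 higher and 149 lower) without CAP replicate 2. For the days they were 392 and 296 in sham wounds, against 234 and 171 with a pseudocount of 1 TPM and 692 and 525 with no filter, and 231 and 276 in CAP-treated wounds, against 352 and 534 without CAP day 6 replicate 3. For the interaction they were 328 and 400, against 247 and 185 without CAP day 6 replicate 2 and 532 and 891 without CAP day 6 replicate 3.

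Whether the replicate numbers of the labels pair the libraries cannot be decided from correlations this weak over 3 libraries. Deviations from the group means correlated at −0.108, 0.009 and 0.038 for same-numbered libraries of sham and CAP at day 3. The values at day 6 were 0.017, 0.094 and 0.073. Each library of day 6 correlated best with its own number, and at day 3 not every library did. A fit with the replicate number as a block gave 3, 4, 3 and 2 members past the threshold in the first 4 comparisons and 6 in the interaction, where Rspo1 was lost, and at day 3 Dkk2 was added. The precision is limited by 3 libraries per group, and the depth behind each TPM value is unknown, which matters most for Wnt2b, Fzd9, Rspo1 and Rspo4 near 0.3 to 1 TPM.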
